A study of Mus musculus with 12 samples.

Results

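The genes described here are 46 genes of the cell cycle, read from the rows of a deposited table of 29564 genes by their symbols: 11 of DNA replication and 35 of mitosis. The list follows gene function, and all 46 had enough reads to be tested. RNA was sequenced from the left ventricle of wild-type C57BL6 mice, 1 library per mouse and 4 mice in each of 3 groups. The Control + Veh mice (libraries C1 to C4) were non-failing and were given vehicle, a mixture of DMSO, PEG-300 and water. The HFpEF + Veh mice (V1 to V4) were on a high-fat diet with L-NAME, an inhibitor of nitric oxide synthases, which models heart failure with preserved ejection fraction (HFpEF), and had the same vehicle. The HFpEF + TYA-018 mice (T1 to T4) had the same diet and L-NAME, and their vehicle carried TYA-018, which blocks the deacetylase HDAC6, dosed by mouth at 15 mg/kg. The series title speaks of a single dose while the labelled protocol gives daily dosing over weeks, and neither the mice's age nor the time from dose to harvest stands in the labels. The paper describes RNA-Seq of hearts taken hours after 1 dose of vehicle or TYA-018. Its set after weeks of dosing also held an empagliflozin group, which is absent here. The first comparison asks how these genes differ between the HFpEF model and control hearts, and the second asks how they differ in the model once TYA-018 is given. Diet, L-NAME and their duration came together in the model and cannot be told apart, and each group's animal numbers lie together, so that any cage or processing day shared within a group cannot be told apart from the group.

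A cell that divides first copies its DNA and then separates the copies. Copying needs the MCM helicase that opens the DNA, the sliding clamp PCNA and enzymes that supply deoxynucleotides, while mitosis needs cyclin B with Cdk1, the Aurora and Polo kinases, the kinetochore, spindle motors and the machinery that cuts the cell apart. Mitosis genes are transcribed late in the cycle, largely through promoter elements bound by the DREAM and MuvB complexes (CHR) and by NF-Y (CCAAT), while replication genes are turned on earlier through E2F sites. Adult heart muscle cells rarely divide, and much of the division in a ventricle is in other cells such as macrophages, endothelial cells and fibroblasts.

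In HFpEF + Veh hearts the mitosis genes rose together: 32 of 35 were higher than in Control + Veh hearts and 1, Cenpf, was lower. The median of their log2 fold changes was 2.11. The DNA replication genes moved less: 4 of 11 rose (Mcm2, Mcm6, Rrm2 and Tk1), 0 fell, and the median log2 fold change was 0.14, beside -0.01 over all genes tested. Under TYA-018 18 of 35 mitosis genes fell against HFpEF + Veh, none rose, and the median was -1.08, beside 0.00 over all genes. None of the 11 replication genes was called in that comparison by edgeR, and DESeq2 called 0. An unadjusted p under 0.05 was held by 2 of the 11, with Mcm6 lower and Pcna higher, and by 4753 of the 14333 genes tested. Against Control + Veh, the TYA-018 hearts still had 12 mitosis genes higher, Cenpf lower and 2 replication genes (Mcm2 and Rrm2) higher. A gene is called when its adjusted p in edgeR's quasi-likelihood test is under 0.05 after Benjamini-Hochberg adjustment over 14333 genes. Of all genes tested, 10.9% were called higher and 10.3% lower in HFpEF + Veh against Control + Veh. TYA-018 against HFpEF + Veh called 8.93% higher and 10.4% lower, and TYA-018 against Control + Veh called 3.12% higher and 2.74% lower. The 3 comparisons use each group of libraries in 2 of them, so that they are not independent of each other. In whole tissue, fewer cells of a type and less RNA per cell cannot be told apart.

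Most of these genes were weakly expressed. On the TPM scale, which takes account of transcript length, 31 of 35 mitosis genes and 7 of 11 replication genes averaged under 1 TPM over the 12 libraries. The replication genes ran from Mcm5 at 0.131 TPM to Pcna at 6.63 TPM, and the mitosis genes from Kif2c at 0.0329 TPM to Ncapd2 at 4.47 TPM. The values below are CPM, that is estimated counts per 1000000 after scaling by TMM, which compare libraries for 1 gene and not genes with each other, each mean is given ± SD of 4 libraries, and each log2 fold change ± its standard error. The libraries held 61.2 M to 83.9 M estimated counts each, where M stands for 1000000, from which Mki67 had 107 to 1066 counts, Ube2c 31 to 446 and Kif2c 2 to 92.

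Promoter windows of the RefSeq table (GRCm38.p6) ran from 250 bases before to 50 after a listed transcript start. They were matched by symbol for 40 of 46 genes, 10 of replication and 30 of mitosis. Those used for Mcm7, Cdca8, Kif2c and Kif4 lay wholly inside the gene as GENCODE M21 places it. Mcm4, Ccna2, Foxm1, Aurkb, Tpx2 and Kif20a had no entry. Because the mitosis genes moved together, the 120 bases before the start are shown for 4 of them that rose in HFpEF + Veh, for Cenpf, which fell, and for Mcm6, a replication gene, each 5′ to 3′ on the gene's own strand. They are Cdk1 at chr10:69352913-69353032 (minus strand), Ube2c at chr2:164769809-164769928 (plus strand), Ccnb2 at chr9:70421555-70421674 (minus strand), Mki67 at chr7:135716380-135716499 (minus strand), Cenpf at chr1:189688087-189688206 (minus strand) and Mcm6 at chr1:128359706-128359825 (minus strand). Capitals mark a CHR (TTTGAA or TTCGAA), the box bound by NF-Y (CCAAT) or an E2F core (TTCCCGC or TTGGCGC), each searched on both strands, so that ATTGG is a CCAAT box on the other strand.
Cdk1: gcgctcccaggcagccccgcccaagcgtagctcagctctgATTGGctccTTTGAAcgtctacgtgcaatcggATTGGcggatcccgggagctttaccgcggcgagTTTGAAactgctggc
Ube2c: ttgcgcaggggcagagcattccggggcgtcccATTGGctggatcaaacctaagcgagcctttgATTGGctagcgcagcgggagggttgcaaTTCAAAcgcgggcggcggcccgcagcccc
Ccnb2: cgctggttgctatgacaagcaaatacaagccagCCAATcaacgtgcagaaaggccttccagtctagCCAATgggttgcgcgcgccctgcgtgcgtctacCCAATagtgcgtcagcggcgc
Mki67: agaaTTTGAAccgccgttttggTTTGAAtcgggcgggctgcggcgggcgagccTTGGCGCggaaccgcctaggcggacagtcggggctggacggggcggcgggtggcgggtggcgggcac
Cenpf: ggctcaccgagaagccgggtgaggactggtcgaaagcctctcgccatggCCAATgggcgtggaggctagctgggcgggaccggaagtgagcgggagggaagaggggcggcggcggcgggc
Mcm6: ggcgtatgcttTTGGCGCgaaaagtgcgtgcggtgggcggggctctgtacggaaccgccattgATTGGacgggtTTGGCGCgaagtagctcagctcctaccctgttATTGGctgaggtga

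Of the 30 mitosis windows 25 (83.3%) held a CHR, against 2 of 10 replication windows and 19.2% of all 32841 windows in the table. CCAAT stood in 24 of 30 mitosis windows and in 8 of 10 replication windows (80% of each), against 37.4% of all windows. The E2F core was in 5 of 10 replication windows (50%) and in 7 of 30 mitosis windows (23.3%), against 6.81% of all. CHR and CCAAT stood together in 22 of 30 mitosis windows (73.3%), in 2 of 10 replication windows and in 7.52% of all. Cdk1 held CHRs at positions -71 and -15 counted from the start, Ube2c at -29 and Mki67 at -116 and -98, while those of Ccnb2 (-167 and 5) and Cenpf (3) lay outside the stretch shown. Mcm6 had 2 E2F cores, at -109 and -46, and no CHR. The CCAAT box and the E2F core can share bases (both hold TTGG when the box is read from the other strand), and 3 genes with a pair of windows (Mcm7, Prc1 and Ect2) are counted by the first. Of the 27 mitosis genes called higher in HFpEF + Veh that had a window, 22 held a CHR. Ccnb1, Melk, Birc5, Cenpe and Nusap1 rose without one, and Melk, Birc5 and Nusap1 held no motif. Cenpf, which fell, and Ncapd2 and Smc2, which were not called, held CHR and CCAAT as well. These are matches of letters and no evidence of binding.

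Mcm2 to Mcm7 are the subunits of the replicative helicase, and Pcna is the clamp that holds polymerases on DNA. Mcm6 measured 7.35, 6.09, 6.31 and 6.47 CPM in C1 to C4 and 9.25, 7.75, 8.48 and 8.42 CPM in V1 to V4. The Mcm6 level in T1 to T4 was 7.09, 7.36, 8.03 and 6.73 CPM. All 4 HFpEF + Veh libraries lay above all 4 controls, and the treated libraries lay within or between both groups. The log2 fold change was 0.37 ± 0.09 (adjusted p = 0.012) in HFpEF + Veh against Control + Veh and -0.21 ± 0.09 (adjusted p = 0.106) under TYA-018 against HFpEF + Veh. Not overlapping upwards in HFpEF + Veh held for 12% of all genes tested, for 2 of 11 replication genes (Mcm6 and Rrm2) and for 32 of 35 mitosis genes.

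Mcm2 gave 3.77, 2.57, 3.00 and 3.14 CPM in C1 to C4 and 4.32, 4.74, 6.15 and 3.44 CPM in V1 to V4. The Mcm2 level in T1 to T4 was 4.70, 4.67, 5.00 and 4.73 CPM. V4 lay within the control range, while the 4 treated libraries stood close together and above every control. Mcm2 rose by 0.58 ± 0.16 (adjusted p = 0.0266) on the log2 scale in HFpEF + Veh and differed from that by 0.03 ± 0.16 (adjusted p = 0.905) under TYA-018, which missed the threshold. The first call was lost without C2, C3, C4, V2 or V3, with adjusted p up to 0.0764. Pcna, the replication gene with the highest TPM, read 19.4, 17.7, 17.4 and 17.7 CPM in C1 to C4 and 17.0, 20.0, 21.2 and 17.3 CPM in V1 to V4. The Pcna level in T1 to T4 was 20.1, 19.8, 22.7 and 23.3 CPM. Its groups overlapped in HFpEF + Veh against Control + Veh, where the log2 fold change was 0.07 ± 0.09 (adjusted p = 0.626), and the treated libraries lay above all controls without passing the test (0.25 ± 0.08 (adjusted p = 0.106)). The other helicase subunits were not called in any comparison, with log2 fold changes in HFpEF + Veh against Control + Veh of 0.25 (adjusted p = 0.146) for Mcm3, -0.05 (adjusted p = 0.809) for Mcm4, -0.05 (adjusted p = 0.937) for Mcm5 and -0.09 (adjusted p = 0.432) for Mcm7.

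Rrm1 and Rrm2 are the large and small subunits of ribonucleotide reductase, Tyms is thymidylate synthase and Tk1 is thymidine kinase. Rrm2, whose protein is made mainly in S phase, measured 0.936, 0.388, 0.820 and 0.919 CPM in C1 to C4 and 1.94, 3.64, 5.56 and 4.44 CPM in V1 to V4. The Rrm2 level in T1 to T4 was 1.15, 2.29, 3.71 and 3.66 CPM. All HFpEF + Veh and all treated libraries lay above the highest control, and those 2 groups overlapped each other. The log2 fold change was 2.34 ± 0.42 (adjusted p = 0.00313) in HFpEF + Veh, -0.53 ± 0.40 (adjusted p = 0.377) for TYA-018 against HFpEF + Veh and 1.81 ± 0.42 (adjusted p = 0.0289) for TYA-018 against Control + Veh. Tk1 rose as well, from 0.671 ± 0.120 to 1.63 ± 0.711 CPM with a log2 fold change of 1.28 ± 0.31 (adjusted p = 0.0129), although V1 lay among the controls, and its mean was 1.11 ± 0.183 CPM under TYA-018. Rrm1 at 0.14 (adjusted p = 0.489) and Tyms at -0.02 (adjusted p = 0.97) were not called.

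**Figure D1:**
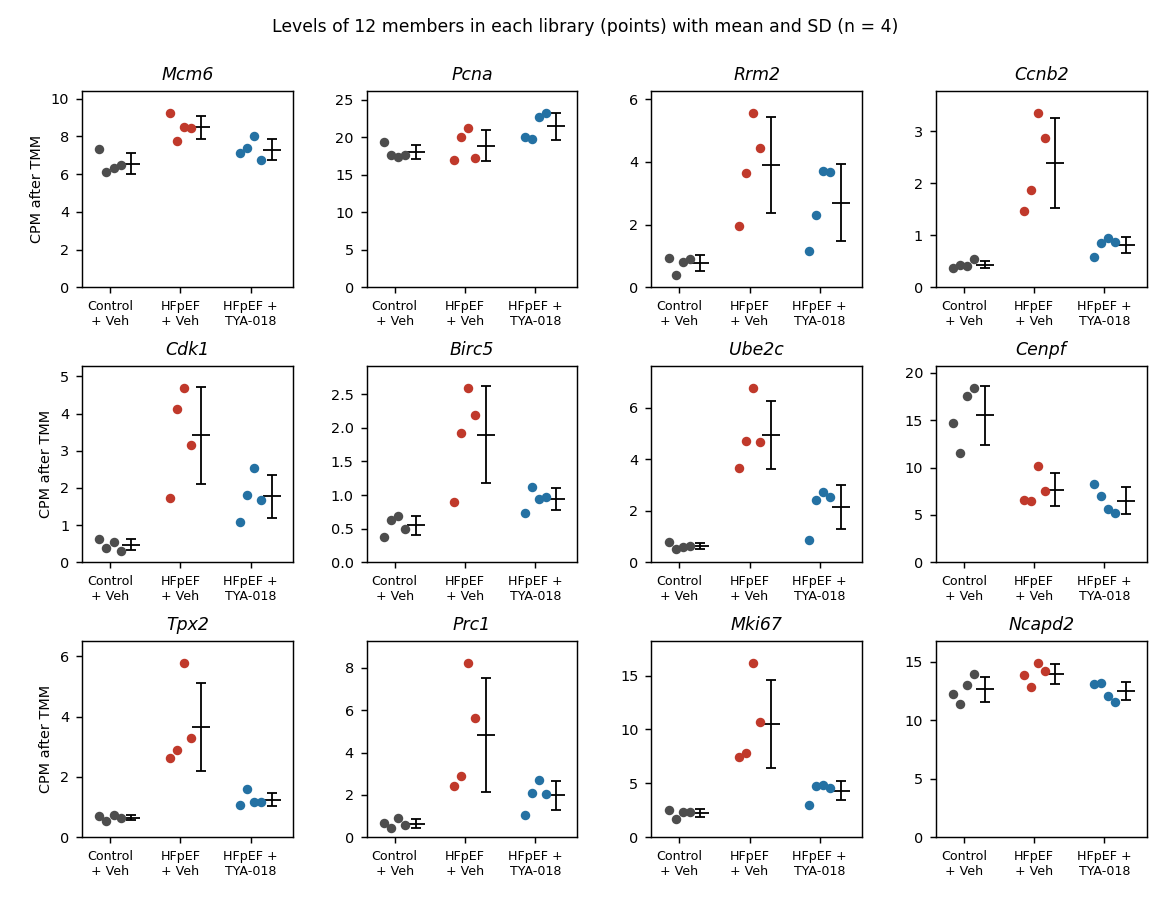
Levels of 12 of the genes, in CPM after TMM scaling on a linear axis that starts at 0, with 1 panel per gene, 1 point per library and the group mean with its SD. Most mitosis genes stand highest in HFpEF + Veh and between it and the control under TYA-018 (Ube2c averaged 0.628, 4.94 and 2.14 CPM), while the 3 groups overlap for Ncapd2, Pcna lies above all controls under TYA-018 alone, and Cenpf is highest in Control + Veh.

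Cyclins A2, B1 and B2 activate Cdk1, the kinase that drives entry into mitosis, and Foxm1 is a transcription factor of late cell cycle genes. All 5 of these genes rose in HFpEF + Veh. Cdk1 measured 0.637, 0.388, 0.536 and 0.306 CPM in C1 to C4 and 1.72, 4.13, 4.69 and 3.14 CPM in V1 to V4. The Cdk1 level in T1 to T4 was 1.09, 1.80, 2.52 and 1.67 CPM. Every HFpEF + Veh and every treated library lay above the controls, and T2 and T3 reached into the HFpEF + Veh range. Cdk1 rose by 2.87 ± 0.36 (adjusted p = 0.000662) in HFpEF + Veh. Under TYA-018 it differed from HFpEF + Veh by -0.95 ± 0.33 (adjusted p = 0.0641), which missed the threshold, and stayed above control by 1.92 ± 0.35 (adjusted p = 0.0119). Ccnb2 gave 0.366, 0.436, 0.410 and 0.540 CPM in C1 to C4 and 1.48, 1.87, 3.36 and 2.86 CPM in V1 to V4. The Ccnb2 level in T1 to T4 was 0.584, 0.862, 0.952 and 0.863 CPM. No library of HFpEF + Veh overlapped either other group, and all treated libraries lay above all controls. It rose by 2.45 ± 0.28 (adjusted p = 0.000453) and fell by 1.55 ± 0.27 under TYA-018 (adjusted p = 0.00344). The 0.89 ± 0.28 (adjusted p = 0.0802) that was left against Control + Veh missed the threshold.

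Ccnb1 read 0.217, 0.0808, 0.252 and 0.146 CPM in C1 to C4 and 0.877, 1.37, 3.44 and 2.53 CPM in V1 to V4. The Ccnb1 level in T1 to T4 was 0.234, 1.16, 1.57 and 1.46 CPM. Its HFpEF + Veh libraries were spread over several fold but lay above all controls, and T1 alone of the treated libraries was down in the control range. Ccnb1 rose by 3.54 ± 0.62 (adjusted p = 0.00268) in HFpEF + Veh, was -0.90 ± 0.55 (adjusted p = 0.274) under TYA-018 against HFpEF + Veh and 2.64 ± 0.61 (adjusted p = 0.0287) against Control + Veh. Ccna2 averaged 0.846 ± 0.136, 4.57 ± 1.95 and 1.72 ± 0.523 CPM in control, HFpEF + Veh and treated hearts. Ccna2 rose by 2.43 (adjusted p = 0.000681) and fell by 1.41 (adjusted p = 0.00766) under TYA-018. Foxm1 rose by 1.48 (adjusted p = 0.00821) and differed by -0.90 (adjusted p = 0.0658) under TYA-018.

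Aurora A (Aurka) builds the spindle poles, while Aurora B (Aurkb) with survivin (Birc5) and borealin (Cdca8) forms the chromosomal passenger complex that corrects attachments and guides division. All 6 kinases and passenger genes rose in HFpEF + Veh. Aurkb measured 0.136, 0.194, 0.189 and 0.248 CPM in C1 to C4 and 0.877, 0.994, 1.79 and 0.972 CPM in V1 to V4. The Aurkb level in T1 to T4 was 0.350, 0.755, 0.692 and 0.610 CPM. The groups did not overlap in any of the 3 comparisons, and V3 stood apart from the other HFpEF + Veh libraries. The log2 fold changes were 2.59 ± 0.34 (adjusted p = 0.000784) in HFpEF + Veh, -0.95 ± 0.32 (adjusted p = 0.0564) for TYA-018 against HFpEF + Veh and 1.64 ± 0.34 (adjusted p = 0.0189) for TYA-018 against Control + Veh. Not overlapping downwards under TYA-018 held for 13.1% of all genes tested and for 16 of 35 mitosis genes, Aurkb among them.

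Birc5 read 0.380, 0.630, 0.694 and 0.496 CPM in C1 to C4 and 0.894, 1.92, 2.60 and 2.19 CPM in V1 to V4. The Birc5 level in T1 to T4 was 0.733, 1.12, 0.937 and 0.968 CPM. V1 lay within the treated range and the other HFpEF + Veh libraries above it. Birc5 rose by 1.79 ± 0.31 (adjusted p = 0.00274) and fell under TYA-018 by 1.02 ± 0.31 (adjusted p = 0.0367). That fall was lost without any library but V1, with adjusted p up to 0.105. Aurka gave 0.271, 0.452, 0.331 and 0.234 CPM in C1 to C4 and 0.688, 1.50, 2.25 and 2.03 CPM in V1 to V4. The Aurka level in T1 to T4 was 0.807, 0.662, 1.01 and 0.774 CPM. V1 lay below most treated libraries. It rose by 2.33 ± 0.36 (adjusted p = 0.00144) in HFpEF + Veh and was -0.99 ± 0.34 (adjusted p = 0.0584) under TYA-018. Cdca8 was 0.393, 0.307, 0.347 and 0.423 CPM in C1 to C4, 1.32, 1.37, 2.04 and 1.15 CPM in V1 to V4 and 0.552, 1.20, 1.24 and 0.983 CPM in T1 to T4, with HFpEF + Veh and treated libraries overlapping above all controls. Its log2 fold change was 1.99 ± 0.29 (adjusted p = 0.00109) in HFpEF + Veh and -0.57 ± 0.27 (adjusted p = 0.171) under TYA-018. Plk1, the Polo kinase, rose by 1.24 (adjusted p = 0.0187) and fell by 1.03 (adjusted p = 0.0417), and Melk rose by 1.68 (adjusted p = 0.0311). Both rises were lost without C2, C4 or V3 (Melk also without C3), with adjusted p up to 0.062 for Plk1 and 0.112 for Melk. The fall of Plk1 was lost without V3, V4, T1, T2 or T4, with adjusted p up to 0.13.

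Kinetochores tie chromosomes to microtubules, the checkpoint kinases Bub1 and Bub1b hold the cell until all are tied, and the anaphase promoting complex with Cdc20 and Ube2c then degrades cyclins. Ube2c, the ubiquitin-conjugating enzyme of that complex, measured 0.787, 0.501, 0.583 and 0.642 CPM in C1 to C4 and 3.64, 4.70, 6.78 and 4.65 CPM in V1 to V4. The Ube2c level in T1 to T4 was 0.860, 2.42, 2.73 and 2.55 CPM. The 4 HFpEF + Veh libraries lay above all others, and T1 was far below T2, T3 and T4 but still above every control. Ube2c rose by 2.97 ± 0.34 (adjusted p = 0.000453) and fell by 1.21 ± 0.31 under TYA-018 (adjusted p = 0.0196). It was still higher than in Control + Veh by 1.76 ± 0.33 (adjusted p = 0.0128). The fall was lost without V3 (adjusted p = 0.057).

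Cenpf, a large protein of the kinetochore and nuclear matrix, went the other way. It read 14.7, 11.5, 17.5 and 18.4 CPM in C1 to C4 and 6.53, 6.44, 10.1 and 7.48 CPM in V1 to V4. The Cenpf level in T1 to T4 was 8.26, 7.02, 5.61 and 5.18 CPM. All control libraries lay above all HFpEF + Veh and treated libraries, which overlapped each other. Cenpf fell by 1.02 ± 0.19 in HFpEF + Veh (adjusted p = 0.00406) and was -0.23 ± 0.19 (adjusted p = 0.44) under TYA-018 against HFpEF + Veh. Treated hearts stayed lower than control by 1.25 ± 0.19 (adjusted p = 0.00515). With the effective length of its transcripts as an offset, and in the fits on TPM, neither difference from control passed the test. Among the other genes of this kind, Bub1 rose by 3.52 (adjusted p = 0.00478), from no count at all in C2. Bub1b rose by 1.29 (adjusted p = 0.0144), Cenpe, a kinetochore motor, by 1.96 (adjusted p = 0.00394) and Cdc20 by 1.88 (adjusted p = 0.00144). Under TYA-018 Cenpe fell by 1.16 (adjusted p = 0.0391) and Cdc20 by 0.96 (adjusted p = 0.0332), while Bub1 at -1.60 (adjusted p = 0.0876) and Bub1b at -0.51 (adjusted p = 0.275) were not called.

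All 7 spindle motors and spindle factors rose in HFpEF + Veh and 4 fell under TYA-018. Tpx2, which activates Aurora A on the spindle, gave 0.705, 0.549, 0.725 and 0.628 CPM in C1 to C4 and 2.61, 2.88, 5.79 and 3.28 CPM in V1 to V4. The Tpx2 level in T1 to T4 was 1.08, 1.59, 1.15 and 1.18 CPM. The groups did not overlap in any comparison, with V3 highest of all. It had the smallest p of the mitosis genes in HFpEF + Veh, with a log2 fold change of 2.48 ± 0.26 (adjusted p = 0.000412), and fell by 1.54 ± 0.25 under TYA-018 (adjusted p = 0.00242). Nusap1, which bundles spindle microtubules, measured 0.854, 0.533, 0.599 and 0.628 CPM in C1 to C4 and 2.56, 2.73, 3.52 and 2.53 CPM in V1 to V4. The Nusap1 level in T1 to T4 was 0.680, 1.28, 1.07 and 1.62 CPM. Its HFpEF + Veh libraries stood within a narrow range above all others, and the treated libraries overlapped the controls at T1. Nusap1 rose by 2.11 ± 0.26 (adjusted p = 0.000612) and fell by 1.29 ± 0.25 under TYA-018 (adjusted p = 0.00591).

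Kif2c, a motor that shortens microtubules at kinetochores, had the lowest mean TPM and the largest log2 fold change in HFpEF + Veh, with 0.0814, 0.0969, 0.0631 and 0.0292 CPM in C1 to C4 and 0.499, 0.624, 1.40 and 1.11 CPM in V1 to V4. The Kif2c level in T1 to T4 was 0.138, 0.339, 0.361 and 0.447 CPM. All 3 groups were apart from each other. It rose by 3.71 ± 0.51 (adjusted p = 0.000922) and fell by 1.50 ± 0.45 under TYA-018 (adjusted p = 0.0353). That fall was lost without V3, V4, T1, T2 or T3, with adjusted p up to 0.104. Kif4, a chromosome-bound motor, read 0.285, 0.420, 0.457 and 0.306 CPM in C1 to C4 and 0.946, 1.06, 1.81 and 1.37 CPM in V1 to V4. The Kif4 level in T1 to T4 was 0.765, 0.724, 0.707 and 0.938 CPM. Its groups were also apart, with a rise of 1.82 ± 0.26 (adjusted p = 0.00109) and a log2 fold change of -0.73 ± 0.25 (adjusted p = 0.0633) under TYA-018. The latter had the opposite sign with effective length as an offset and on the TPM scale. Kif11, the motor that pushes spindle poles apart, rose by 1.40 (adjusted p = 0.0101) and fell by 1.19 (adjusted p = 0.0229). Hmmr, a spindle factor, was 0.176, 0.0646, 0.237 and 0.0584 CPM in C1 to C4, 0.533, 1.08, 3.14 and 1.93 CPM in V1 to V4 and 0.382, 0.986, 1.07 and 0.744 CPM in T1 to T4. V3 held the highest level and V1 the lowest of its group, and HFpEF + Veh and treated libraries overlapped above all controls. Hmmr rose by 3.62 ± 0.62 (adjusted p = 0.00234) and was -1.08 ± 0.54 (adjusted p = 0.188) under TYA-018. Kif15 rose by 3.08 (adjusted p = 0.0179), from no count at all in C2, and the rise was lost without V3 (adjusted p = 0.0611).

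The central spindle and the contractile ring split the cell, and all 6 genes of this group rose in HFpEF + Veh while 5 fell under TYA-018. Prc1, which crosslinks the midzone microtubules, measured 0.692, 0.420, 0.899 and 0.555 CPM in C1 to C4 and 2.44, 2.90, 8.25 and 5.64 CPM in V1 to V4. The Prc1 level in T1 to T4 was 1.04, 2.08, 2.73 and 2.04 CPM. V3 and V4 held more than V1 and V2, every HFpEF + Veh library was above every control, and T3 lay above V1. Prc1 rose by 2.90 ± 0.43 (adjusted p = 0.00112) and fell by 1.29 ± 0.40 under TYA-018 (adjusted p = 0.0394). Against Control + Veh it was 1.61 ± 0.41 (adjusted p = 0.0419) under TYA-018. The fall was lost without V3, V4, T1, T2 or T4, with adjusted p up to 0.125. Ect2, the exchange factor that activates RhoA at the midzone, rose by 1.84 (adjusted p = 0.00683) and fell by 1.67 (adjusted p = 0.0118), to 0.17 (adjusted p = 0.846) against Control + Veh. Kif23 and Racgap1, which form centralspindlin, rose by 1.74 (adjusted p = 0.00234) and 1.86 (adjusted p = 0.00229) and fell by 0.95 (adjusted p = 0.0388) and 1.08 (adjusted p = 0.029). Anln, the ring protein anillin, rose by 2.00 (adjusted p = 0.00308) and fell by 1.12 (adjusted p = 0.041). Kif20a, a midzone motor, rose by 2.52 (adjusted p = 0.0233), a call lost without V3 (adjusted p = 0.0645), and was -1.01 (adjusted p = 0.303) under TYA-018. It had no count at all in C2, beside 0.407, 0.662 and 0.861 CPM in C1, C3 and C4.

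Mki67 coats mitotic chromosomes and is the usual marker of cycling cells. It gave 2.56, 1.73, 2.32 and 2.34 CPM in C1 to C4 and 7.41, 7.77, 16.2 and 10.7 CPM in V1 to V4. The Mki67 level in T1 to T4 was 2.97, 4.76, 4.86 and 4.59 CPM. The 3 groups were apart from each other, V3 was highest and T1 was well below the other treated libraries. Mki67 rose by 2.23 ± 0.25 (adjusted p = 0.000453) and fell by 1.30 ± 0.25 under TYA-018 (adjusted p = 0.00512). The treated hearts were 0.94 ± 0.25 (adjusted p = 0.0474) above Control + Veh. Top2a, which untangles sister DNA, rose by 2.42 (adjusted p = 0.00458) and fell by 1.41 (adjusted p = 0.046). The condensin subunit Ncapg rose by 2.88 (adjusted p = 0.00223) and was -1.34 (adjusted p = 0.0544) under TYA-018.

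Ncapd2, another condensin subunit and the mitosis gene with the highest TPM, measured 12.3, 11.4, 13 and 13.9 CPM in C1 to C4 and 13.8, 12.8, 14.9 and 14.2 CPM in V1 to V4. The Ncapd2 level in T1 to T4 was 13.1, 13.2, 12.1 and 11.5 CPM. Its groups overlapped in every comparison. The log2 fold change was 0.14 ± 0.08 (adjusted p = 0.215) in HFpEF + Veh against Control + Veh. Under TYA-018 it was -0.16 ± 0.08 (adjusted p = 0.164) against HFpEF + Veh and -0.02 ± 0.08 (adjusted p = 0.904) against Control + Veh. Smc2, the core of condensin, averaged 1.84 ± 0.654, 2.96 ± 0.630 and 2.08 ± 0.340 CPM in control, HFpEF + Veh and TYA-018 hearts and missed the threshold in HFpEF + Veh at 0.68 ± 0.24 (adjusted p = 0.0641). Ncapd2 and Smc2 were the 2 mitosis genes not called in that comparison.

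**Figure D2:**
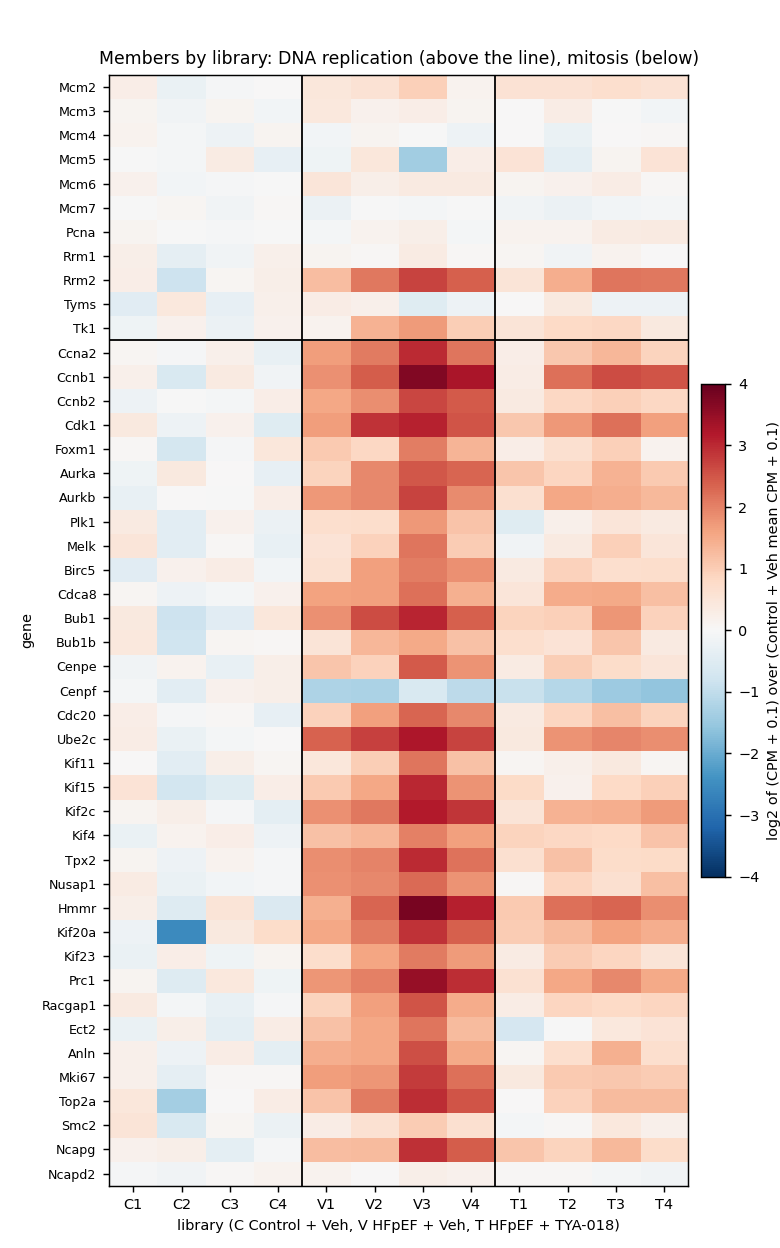
Heat map of the 46 genes (rows, by role) in the 12 libraries (columns), where colour is log2 of (CPM + 0.1) over (the gene's mean CPM in Control + Veh + 0.1), drawn up to 4 in either direction, red for higher and blue for lower than the control mean. Within HFpEF + Veh, V3 is the highest library in 35 of 35 mitosis genes and V1 the lowest in 29, and within the treated group T1 is the lowest in 27.

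The libraries of a group did not move independently from gene to gene. V3 was the highest of the HFpEF + Veh libraries in 35 of 35 mitosis genes and V1 the lowest in 29, and T1 was the lowest treated library in 27 and C2 the lowest control in 19. The replication genes had no such order: V3 was highest in 5 of 11 and V1 lowest in 4. The genes of a count are therefore not independent of each other. HFpEF + Veh against Control + Veh called 29 to 34 mitosis genes whichever library was left out. For TYA-018 against HFpEF + Veh the 18 falls became 6 without V3, 7 without T1, 7 without T2, 9 without V4, 10 without T4, 13 without T3, 14 without V2 and 22 without V1, always with 35 of 35 below 0. Over all genes tested, the 1487 lower calls became 1063 without V3, 838 without T1, 904 without T2 and 1086 without V4. They became 1480 without T4, 1181 without T3, 1084 without V2 and 1117 without V1. Ccna2, Ccnb2, Tpx2, Nusap1, Ect2 and Mki67 kept the call in all 8 of these fits. Among those not given by library, the fall was lost without V3, V4, T1, T2, T3, T4 for Cenpe (adjusted p up to 0.132), without V2, V3, V4, T1, T2, T4 for Cdc20 (adjusted p up to 0.0987), without V3, T1, T2 for Kif11 (adjusted p up to 0.0663), without V2, V3, V4, T1, T2, T3, T4 for Kif23 (adjusted p up to 0.115), without V3, T1, T2, T3 for Racgap1 (adjusted p up to 0.087), without V2, V3, V4, T1, T2, T4 for Anln (adjusted p up to 0.132) and without V2, V3, V4, T1, T2, T3, T4 for Top2a (adjusted p up to 0.129).

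TYA-018 hearts lay between the other groups for most mitosis genes. Against Control + Veh the median log2 fold change of the 35 genes was 0.94, beside -0.02 over all genes, 12 were called higher and 20 lay above all controls, against 7.76% of all genes tested. For the replication genes the median was 0.16, 2 were called and 4 lay above all controls. The called mitosis genes were Ccnb1, Cdk1, Aurka, Aurkb, Cdca8, Ube2c, Kif2c, Kif4, Tpx2, Hmmr, Prc1 and Mki67, with log2 fold changes from 0.94, for Tpx2 and Mki67, to 2.64 for Ccnb1. Of these, Cdk1 and Ube2c, and Cenpf in the other direction, kept the call in all 8 fits without 1 library, and Aurkb and Cdca8 lost it only without T2. Kif2c lost it without C3, C4, T2, T3 or T4, Ccnb1 and Hmmr without C2, C4, T2, T3 or T4, Rrm2 without those or C3, and Mcm2 without any library but C1. Prc1 and Mki67 lost it without any library but T1, Aurka without any but C2, Kif4 without any but C3 and Tpx2 in every case, with adjusted p up to 0.13. The called mitosis genes numbered 3 without T2, 5 without C4, T3 or T4, 7 without C2, 8 without C1 or C3 and 12 without T1, instead of 13, Cenpf included, and the called replication genes numbered 0 without C2, C3, C4, T2, T3 or T4 and 1 without T1. Over all genes tested, the 447 higher and 393 lower calls became 158 and 159 without T2 and 171 and 158 without C4. They became 219 and 197 without T1 and 434 and 381 without C1.

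**Figure D3:**
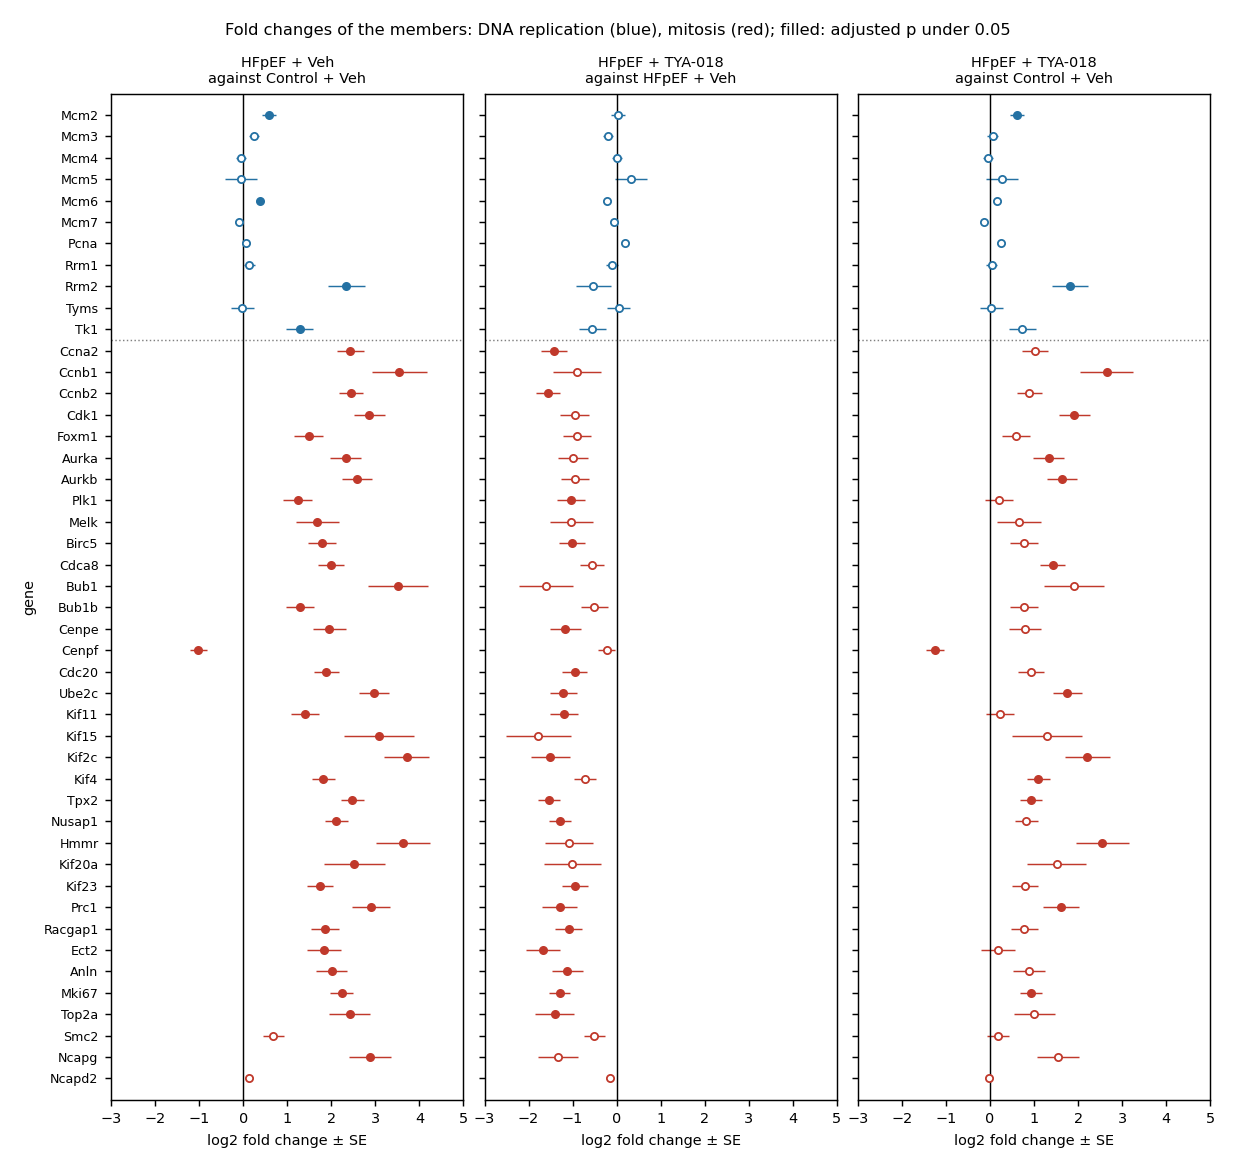
Log2 fold change with its standard error for each of the 46 genes, by role, with 1 panel for each of the 3 comparisons, DNA replication genes in blue and mitosis genes in red. Filled points passed the test: 36 higher and 1 lower in HFpEF + Veh against Control + Veh, 18 lower in TYA-018 against HFpEF + Veh, all mitosis genes, and 14 higher and 1 lower in TYA-018 against Control + Veh.

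How firmly these counts stand depends on the unit. On log2(TPM + 1), where a gene under 1 TPM can hardly move, 9 mitosis genes were called in HFpEF + Veh at a median of 0.18, and 3 under TYA-018, where 29 of 35 were below 0. Over all genes that scale called 51 higher and 121 lower in HFpEF + Veh, and 2228 higher and 68 lower under TYA-018. The study's scaling takes log2(TPM + 1) after rescaling over protein-coding genes without mitochondrially encoded ones. It called 23 mitosis genes in HFpEF + Veh (median 0.77), beside 672 higher and 418 lower over all genes. Under TYA-018 it called 7, beside 370 higher and 410 lower over all genes. With effective length as an offset the counts were 26 and 8, with 32 of 35 below 0 under TYA-018. Over all genes that offset called 809 higher and 635 lower in HFpEF + Veh, and 567 higher and 654 lower under TYA-018. Without the offset the all-gene calls were 1561 and 1472, and 1280 and 1487. The all-gene median moves on the TPM scale too, to -0.07 in HFpEF + Veh against Control + Veh, 0.17 in TYA-018 against HFpEF + Veh and 0.08 in TYA-018 against Control + Veh on log2(TPM + 1). The median of the replication genes was 0.14 in HFpEF + Veh against Control + Veh and -0.06 in TYA-018 against HFpEF + Veh on counts, but -0.04 and 0.15 on that scale, so that no direction is given for them as a group.

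A wider set of 132 cell cycle genes outside the 46 was read beside them, of which 127 could be tested. Of 61 other mitosis genes tested, 39 rose and 3 fell in HFpEF + Veh (median 1.82), and 12 fell and 1 rose under TYA-018 (median -0.85). Cdc25b, the phosphatase that activates Cdk1, measured 3.76, 3.54, 3.41 and 3.95 CPM in C1 to C4, 6.65, 6.25, 7.13 and 5.61 CPM in V1 to V4 and 3.67, 4.24, 3.63 and 4.08 CPM in T1 to T4. Its HFpEF + Veh libraries lay above both other groups, and it rose by 0.81 (adjusted p = 0.000634) and fell by 0.72 (adjusted p = 0.0014). Stil, needed to duplicate centrioles, rose by 3.47 (adjusted p = 0.000681) and fell by 2.25 (adjusted p = 0.00404), the kinase Nek2 rose by 3.44 (adjusted p = 0.00074), and Cdca3 by 2.13 (adjusted p = 0.000922). Diaph3, a formin of the contractile ring, and Smc4, the partner of Smc2, fell under TYA-018 by 1.95 (adjusted p = 0.00498) and 0.47 (adjusted p = 0.0114). Those that fell in HFpEF + Veh were Sgo2a, a protector of cohesion (-0.58 (adjusted p = 0.00471)), Cenpa, the centromeric histone (-0.38 (adjusted p = 0.0085)), and Pttg1, securin (-0.31 (adjusted p = 0.0426)), and Cenpa was the one that rose under TYA-018 (0.44 (adjusted p = 0.00574)). Against Control + Veh 8 were higher under TYA-018, among them Nek2 (2.34 (adjusted p = 0.0128)), Cdca3 (1.38 (adjusted p = 0.0201)), Ckap2, a spindle protein (2.49 (adjusted p = 0.0256)), and Nuf2, of the kinetochore (1.95 (adjusted p = 0.0342)).

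Of 38 other replication genes tested, 1 rose and 2 fell in HFpEF + Veh (median 0.01), where 10.9% of all genes rose and 10.3% fell. The rise was that of Uhrf1, which carries DNA methylation through replication (1.06 (adjusted p = 0.0126)), and the falls were those of Gmnn, geminin, which blocks renewed licensing (-0.53 (adjusted p = 0.000784)), and Pold1, the catalytic subunit of polymerase delta (-0.34 (adjusted p = 0.00845)). Under TYA-018 5 rose and 1 fell (median 0.04), where 8.93% of all genes rose and 10.4% fell. Among the 5 were Gmnn at 0.32 (adjusted p = 0.00935), the single-strand binding subunits Rpa2 at 0.45 (adjusted p = 0.0131) and Rpa1 at 0.20 (adjusted p = 0.0182), and Ung, which removes uracil, at 0.45 (adjusted p = 0.0175). Dbf4, the activator of the Cdc7 kinase, fell by 0.53 (adjusted p = 0.0344). Pold1 was the one called in TYA-018 against Control + Veh, at -0.28 (adjusted p = 0.0434).

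The regulators of entry and arrest had 28 genes tested, of which 6 rose in HFpEF + Veh and 10 fell under TYA-018 (medians 0.19 and -0.31). Of all genes, 10.9% rose in the first of these comparisons and 10.4% fell in the second. Cdkn1a, the inhibitor p21, stood at 65.3, 63.7, 55.3 and 49.4 CPM in C1 to C4, 115, 143, 152 and 138 CPM in V1 to V4 and 67.8, 62.1, 54.4 and 84.9 CPM in T1 to T4. Its HFpEF + Veh libraries lay above all others, and it rose by 1.23 ± 0.14 (adjusted p = 0.000441) and fell by 1.02 ± 0.14 under TYA-018 (adjusted p = 0.00119), so that an arrest gene and the mitosis genes were high in the same group. Cyclin D1 (Ccnd1) rose by 0.66 (adjusted p = 0.00266) and fell by 0.68 (adjusted p = 0.00302), and cyclin E2 (Ccne2) fell by 1.54 under TYA-018 (adjusted p = 0.00632). The factors E2f1 and E2f2 rose by 1.86 (adjusted p = 0.000965) and 2.25 (adjusted p = 0.00292). E2f2 fell by 1.65 under TYA-018 (adjusted p = 0.0132) and E2f1 was the one gene of the list still higher than in Control + Veh (1.39 (adjusted p = 0.0121)). The arrest genes Cdkn1b and Cdkn1c fell under TYA-018 by 0.38 (adjusted p = 0.0264) and 0.43 (adjusted p = 0.0411), while Btg2 and Ccng1 were called in no comparison. Over all 127 the calls were 46 higher and 5 lower in HFpEF + Veh and 6 higher and 23 lower under TYA-018. The latter split became 5 higher and 4 lower with effective length as an offset, 17 and 2 on log2(TPM + 1), 17 and 3 on log2(TPM + 0.1), 8 and 2 on log2(TPM + 1) without a filter, 5 and 6 on the study's scaling and 6 and 12 on counts without a filter. Without 1 library the 29 calls became 13 without T1, 16 without V3 or T2, 17 without V4 and 18 without V2. Over all genes tested, the 1280 higher and 1487 lower calls became 655 and 838 without T1. They became 567 and 654 with effective length as an offset.

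**Figure D4:**
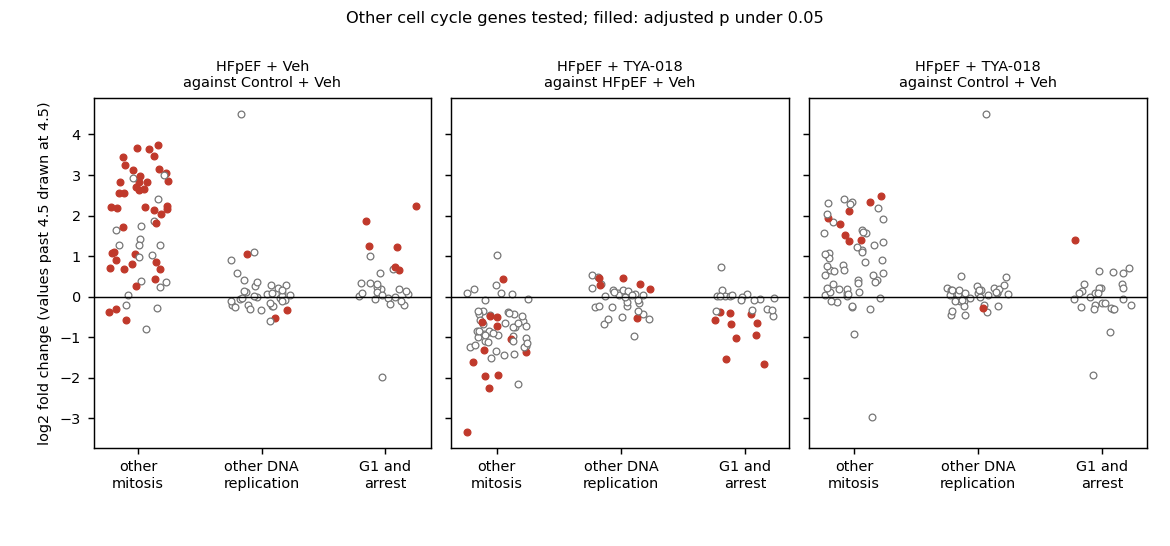
Log2 fold change (vertical axis) of the 127 other cell cycle genes tested, with 1 panel for each of the 3 comparisons, 1 point per gene in 3 lists, filled where the gene passed the test, sideways spread added for legibility and values past 4.5 drawn at that limit. The other mitosis genes lie mostly above 0 in HFpEF + Veh against Control + Veh (median 1.82) and mostly below it in TYA-018 against HFpEF + Veh (median -0.85), while the other replication genes lie around 0 (medians 0.01 and 0.04).

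Markers of the cell types a ventricle holds moved with these groups. Of 9 macrophage markers 8 rose in HFpEF + Veh, 5 fell under TYA-018 and 0 were called in TYA-018 against Control + Veh, and their summed CPM was 99.5 to 116 in Control + Veh, 154 to 199.9 in HFpEF + Veh and 107 to 127 under TYA-018. Of 8 fibroblast markers 4 rose and 6 fell under TYA-018, with a summed CPM of 446 to 666, 676 to 932 and 443 to 635 in the same order. Of 8 endothelial markers 3 rose and 3 fell, with a summed CPM of 779.96 to 926, 945 to 1142 and 748 to 934. In each of these 3 lists the HFpEF + Veh libraries lay above all others on that scale. The sums of the pericyte and smooth muscle list did so too (834 to 957, 969 to 1059 and 754 to 927), although 3 of its 7 markers were higher and 4 lower in HFpEF + Veh. On the TPM scale the groups were closer: the sums in the same order were 29.4 to 36.4, 39.6 to 54.8 and 37.7 to 49.0 for macrophages, 114 to 173, 125 to 189.8 and 115 to 147 for fibroblasts, and 167 to 173, 146 to 185 and 165 to 249 for endothelial cells, where the mean was lowest in HFpEF + Veh. Red cell genes moved as well: all 6 tested of 9 listed rose in HFpEF + Veh and fell under TYA-018, with a summed TPM of 1700 to 2733, 4516 to 13414 and 3100 to 3936. V1, the highest in red cell genes, was the lowest HFpEF + Veh library for 29 of 35 mitosis genes. V3, the highest for 35 of 35, had a red cell sum of 9239 TPM, beside 13414 in V1, 5789 in V2 and 4516 in V4. Of 9 erythroid precursor genes listed 4 could be tested, of which 2 rose and 1 fell in HFpEF + Veh, while 2 fell and 1 rose under TYA-018. Trim10 was among the first and Sptb was the one that moved the opposite way. The log2 fold changes of these 4 ran from -0.26 to 3.68 in HFpEF + Veh and from -2.84 to 0.32 under TYA-018. The 9 listed genes summed to 3.56, 1.91, 3.90 and 1.82 TPM in V1 to V4. Among those not tested, Klf1 (0 to 12 counts), Gata1 (0 to 7), Rhag (0 to 3) and Kel (0 to 13) were at or near 0, as were the neutrophil precursor genes Elane and Mpo (0 to 1 counts). The heart muscle markers, 8 in all, were strongly expressed in every library (summed TPM 21083 to 26743, 15512 to 18884 and 18360 to 33368), and 1 rose and 5 fell in HFpEF + Veh while 3 rose under TYA-018. Pericyte, monocyte, neutrophil, T cell, B cell, platelet, fat cell and atrial lists had at most 1 marker called in either comparison. Mitochondrially encoded genes took 38.8%, 45.1% and 38.9% of counts on average in Control + Veh, HFpEF + Veh and TYA-018 libraries. The part of these cell types, or of RNA composition, in the mitosis result was not tested.

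Some of the genes share sequence with others, which limits how reads were assigned. Ccnb1, Mcm7, Cdc20, Pcna, Plk1 and Rrm2 share between 12% and 27.7% of their 31-base words with transcripts of other genes, and their values are less certain for that reason. In 19 of 46 genes another gene overlaps on the opposite strand, as Tnnc2 does for Ube2c and Oip5 for Nusap1. The library kit keeps strand, but the strand setting of the quantification is not given in the sources used here.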

How the data were processed

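Left ventricles of 12 mice were sequenced from polyA RNA with a TruSeq Stranded mRNA kit, and the 4 libraries of each of 3 groups were taken from the labels. The authors trimmed reads with fastp and quantified them with Salmon 1.6.0 against GENCODE M25 (GRCm38.p6) and summarised genes with tximport, while the labels' processing notes name hg38, and the read layout differs between labels and methods. The deposited tables hold estimated counts (74.4% to 77.6% of values whole), TPM and effective lengths (another unit, in bases), all made by the authors before any filter was applied here.

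After rounding to integers, edgeR 4.0.16 (R 4.3.3) was run on the 14333 of 29564 genes that filterByExpr keeps at a minimum count of 10, which hold 99.98% of counts. Libraries were scaled by TMM, and 1 quasi-likelihood model fitted to the 12 libraries (9 residual degrees of freedom, common biological coefficient of variation 0.232). Standard errors are the log2 fold change divided by the root of F. All tests were two-sided, and an exact permutation test of 4 against 4 libraries cannot go below p = 0.0286. The study tested log2(TPM + 1) of protein-coding genes; counts need a count model, so that scale is an alternative here, beside DESeq2 1.42.0, limma 3.58.1, an effective-length offset, other filters and leaving out each library. Each p-value weighs a difference between groups of 4 mice against the spread between mice, which the model estimates from the 12 libraries together. The precision also depends on each gene's own counts, out of totals of 61.2 M to 83.9 M (M for 1000000).

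The members and all lists were chosen with earlier results of these data known. Values by library are given, within each of 8 roles, for the gene with the highest mean TPM, the gene with the smallest p in HFpEF + Veh against Control + Veh, and any gene called in TYA-018 against Control + Veh, which makes 21 genes. Of the other lists up to 4 called genes per list, comparison and direction are named, with up to 4 arrest genes. Gene overlaps and shared sequence come from GENCODE M21 (28675 of 29564 IDs matched), and promoters from RefSeq. The scripts were tested on simulated counts.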

Additional observations from a re-analysis of the deposited data

Results flagged for a closer look

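Of 63 groups of 4 libraries checked (21 genes in 3 groups), 4 held a library whose gap to its nearest neighbour took more of the group's range than Dixon's 95% critical value for 4 samples, and chance alone marks about 1 in 20 groups. Pcna, the replication clamp, was high in C1 at 19.4 CPM, with the other controls between 17.4 and 17.7 CPM. Aurkb, the Aurora kinase of the passenger complex, was high in V3 at 1.79 CPM, with the other HFpEF + Veh libraries between 0.877 and 0.994 CPM. Ube2c, of the anaphase promoting complex, was low in T1 at 0.860 CPM, with the other treated libraries between 2.42 and 2.73 CPM, and Mki67 was low in T1 at 2.97 CPM, with the others between 4.59 and 4.86 CPM. V3 was the highest HFpEF + Veh library in 35 of 35 mitosis genes and T1 the lowest treated library in 27, and T1 was also the library with the highest total, 83.9 M estimated counts. The part of depth in these values was not tested.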

How the results depend on the processing

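No paired analysis was possible because the groups hold different mice, whose numbers never recur from group to group. Among the mitosis genes, 33 were called in HFpEF + Veh against Control + Veh (29 to 34 without 1 library), 18 in TYA-018 against HFpEF + Veh (6 to 22) and 13 in TYA-018 against Control + Veh (3 to 12). The replication genes gave 4 (3 to 4), 0 (0 to 1, with 1 without V1) and 2 (0 to 2), and the other cell cycle genes 51 (36 to 52), 29 (13 to 30) and 10 (2 to 9). In the last, the count was 6 without C1, 5 without C2, 4 without C3, C4 or T4, 3 without T2 and 2 without T3. Leaving out 1 library also leaves fewer samples to the fit, and the calls over all genes changed in these fits as well.

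The counts changed by over 1.5 times as follows, and the cause was not tested beyond the fact that adding 1 to genes under 1 TPM shrinks their log differences by construction. On log2(TPM + 1), log2(TPM + 0.1) and log2(TPM + 1) without a filter, HFpEF + Veh against Control + Veh called 9, 14 and 3 mitosis genes, 0, 1 and 0 replication genes and 6, 15 and 0 others; TYA-018 against HFpEF + Veh called 3, 3 and 2 mitosis genes, and 19 others on the first scale and 10 on the last; TYA-018 against Control + Veh called 0, 1 and 0 mitosis genes, and 0 replication genes and 0 others on each. The study's scaling gave 1 replication gene and 27 others in the first comparison, 7 mitosis genes and 11 others in the second, and 1 mitosis gene, 0 replication genes and 0 others in the third. With effective length as an offset the second gave 8 mitosis genes and 9 others, and the third 3 mitosis genes, 0 replication genes and 2 others. Without a filter on counts the second gave 10 mitosis genes and 18 others, and the third 1 replication gene and 6 others. With only the 2 groups compared the third gave 6 others, and the DESeq2 Wald test 19.

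Across all genes, TYA-018 against HFpEF + Veh called 1280 higher and 1487 lower on counts but 2228 higher and 68 lower on log2(TPM + 1). It called 567 and 654 with effective length as an offset, and 370 and 410 on the study's scaling. TYA-018 against Control + Veh called 447 and 393 on counts, 108 and 98 with that offset, and 53 and 47 on the study's scaling. DESeq2 size factors and leaving out mitochondrial genes changed no such count by over 1.5 times.

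Some log2 fold changes that missed the threshold also changed sign. On log2(TPM + 1) with or without a filter, and on log2(TPM + 0.1), Pcna was -0.13 and -0.15 and Ncapd2 -0.0624 and -0.0781 in HFpEF + Veh against Control + Veh. In TYA-018 against HFpEF + Veh, Mcm6 was 0.11 and 0.19, Cenpf 0.0131 and 0.0014, Kif4 0.0783 and 0.281, and Ncapd2 0.44 and 0.52. Ncapd2 was 0.38 and 0.44 in TYA-018 against Control + Veh. On the study's scaling Kif4 was 0.00905 and Ncapd2 0.0733 in the second comparison and 0.25 in the third, and with effective length as an offset Kif4 was 0.10 and Ncapd2 0.10 in the second and 0.24 in the third. Mcm2 in the second comparison was -0.0013 without V1 and -0.0869 without V4 (-0.0869 to 0.198 over the 8 fits without 1 library), and Ncapd2 in the third was 0.0266 without C4 and 0.0158 without T4 (-0.0679 to 0.0266).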
